A study of Mus musculus with 8 samples.

Results

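The genes described here are Zfp949, Rasgrf1 and 8 genes that lie near them on mouse chromosome 9, namely Plscr1, Plscr2, Plscr4, Cep162, Pgm3, Ttk, Ibtk and Rwdd2a. They make 10 of the 56980 genes counted in the jejunal mucosa. Symbols were matched to the Ensembl identifiers of the count tables, and all 10 matched, were detected and had enough counts to be tested. Zfp949 and Rasgrf1 were chosen by their log2 fold change between the genotypes in these same libraries. The difference of this pair is therefore given as a description without a test. The other 8 genes lie within about 5 Mb of them and were named with results of these libraries known. The mice were male. The Adipoq-F2-KO mice carried floxed alleles of Ffar2, the gene of the free fatty acid receptor FFA2, and a Cre recombinase driven by the adiponectin promoter, which is active in adipocytes, and the FFA2 fl/fl controls were co-housed littermates that carried the floxed alleles without Cre. Mice of both genotypes were 12 weeks old at the start of a Western diet with 10% fructooligosaccharides, a fermentable fibre, and were kept on it for 2 weeks at thermoneutrality. There were 4 libraries per genotype, each of bulk mucosa scraped from the jejunum. Every Adipoq-F2-KO mouse and no control carried the Cre transgene, so an effect of the transgene and an effect of FFA2 loss cannot be told apart, and in bulk tissue fewer cells of a type cannot be told apart from less RNA per cell.

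Zfp949 encodes a zinc finger protein of the C2H2 class, a class of DNA-binding proteins of which many recruit co-repressors to chromatin. Rasgrf1 encodes a guanine nucleotide exchange factor that loads Ras proteins with GTP, is best known from the brain, and is an imprinted gene in the mouse. The scramblase genes Plscr1, Plscr2 and Plscr4 lie in one cluster and encode membrane proteins named for the movement of phospholipids between membrane leaflets, and Plscr1 is an interferon-induced gene. Among the others, Pgm3 encodes an enzyme of the hexosamine pathway that makes UDP-N-acetylglucosamine, the sugar donor for mucins and other glycoproteins. Cep162 encodes a centriole protein needed to build the ciliary transition zone, Ttk encodes the spindle checkpoint kinase also called MPS1, and Ibtk encodes an inhibitor of Bruton tyrosine kinase that also serves as an adaptor of CUL3 ubiquitin ligases.

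Total counts ranged from 6007654 to 21712776 per library, and 3 libraries held fewer than 10000000 (FFA2 fl/fl 3, Adipoq-F2-KO 3 and Adipoq-F2-KO 4). Markers of villus enterocytes summed to between 908642 and 1016550 normalized counts in the controls and between 893662 and 1005750 in Adipoq-F2-KO, so the labelled tissue carried its defining markers in every library. The summed level of 8 smooth muscle markers, a sign of deeper wall layers in the scraping, ran from 247 to 19475 in the controls and from 457 to 6603 in Adipoq-F2-KO. Ffar2, the targeted gene, had raw counts of 12, 18, 2 and 11 in the controls and 13, 12, 6 and 3 in Adipoq-F2-KO (log2 fold change 0.18 ± 0.56, SE, n = 4 per genotype), which in bulk mucosa does not check a deletion made in adipocytes. Counts were normalized by dividing each library by its DESeq2 size factor, and log2 fold changes are Adipoq-F2-KO over FFA2 fl/fl.

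The promoters of Zfp949 and Rasgrf1 are shown because these genes carried the genotype difference, and that of Pgm3 because it overlaps the promoter of Rwdd2a, a neighbour on the opposite strand. The sequences are from RefSeq (GRCm38.p6), run 5′ to 3′ on the strand of the gene, and hold 250 bases before and 50 bases after the annotated start. They lie at chr9:88547770-88548069 (plus strand) for Zfp949, chr9:89909525-89909824 (plus strand) for Rasgrf1 and chr9:86571793-86572092 (minus strand) for Pgm3. Capitals mark matches on either strand to the GC box GGGCGG, to the CCAAT box, to the TATA box motif TATAAA or to the E-box CACGTG, where overlapping matches run together.
Zfp949: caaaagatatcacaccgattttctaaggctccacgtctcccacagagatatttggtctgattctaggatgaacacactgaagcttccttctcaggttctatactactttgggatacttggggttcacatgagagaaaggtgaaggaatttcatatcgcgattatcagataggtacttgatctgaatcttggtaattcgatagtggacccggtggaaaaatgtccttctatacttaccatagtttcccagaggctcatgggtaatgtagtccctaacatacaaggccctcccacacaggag
Rasgrf1: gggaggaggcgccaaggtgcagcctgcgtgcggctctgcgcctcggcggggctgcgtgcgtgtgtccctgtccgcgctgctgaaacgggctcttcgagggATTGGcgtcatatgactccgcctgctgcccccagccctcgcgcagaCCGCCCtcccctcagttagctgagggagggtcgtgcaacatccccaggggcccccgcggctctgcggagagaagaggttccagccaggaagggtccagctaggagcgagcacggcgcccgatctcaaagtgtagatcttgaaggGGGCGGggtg
Pgm3: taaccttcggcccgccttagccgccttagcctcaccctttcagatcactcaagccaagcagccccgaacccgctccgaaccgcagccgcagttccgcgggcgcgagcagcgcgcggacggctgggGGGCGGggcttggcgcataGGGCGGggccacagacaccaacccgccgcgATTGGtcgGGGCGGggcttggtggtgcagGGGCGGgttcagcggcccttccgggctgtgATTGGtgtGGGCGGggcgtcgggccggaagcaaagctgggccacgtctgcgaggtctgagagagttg

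The Zfp949 promoter had a GC content of 43.33%, held 6 CpG dinucleotides and had no match to any of these motifs. The Rasgrf1 promoter had a GC content of 68.33% and 26 CpG, with 2 matches to GGGCGG and 1 to CCAAT. That of Pgm3 had a GC content of 70.33%, 33 CpG, 5 matches to GGGCGG and 2 to CCAAT, and shared 245 and 290 bases with the windows of the 2 annotated starts of Rwdd2a. Over 32851 RefSeq promoters of the same 300 bases, the median GC content was 52.67% and the median number of CpG was 7. The GC box was found in 35.7% of them, the CCAAT box in 37.4%, the TATA box motif in 13.6% and the E-box in 7.15%. The matches describe letters in these windows, and binding at them was not measured.

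Zfp949 (ENSMUSG00000032425, chr9:88548020-88571061, plus strand, GRCm38) was higher in every Adipoq-F2-KO library than in any control. Raw counts were 87, 84, 23 and 60 in FFA2 fl/fl libraries 1 to 4 and 284, 289, 103 and 102 in Adipoq-F2-KO libraries 1 to 4. After normalization the controls stood at 52.7, 44.3, 48.1 and 46.4 and the Adipoq-F2-KO libraries at 224, 179, 206 and 192. The lowest Adipoq-F2-KO value was 3.40 times the highest control value, and the spread within each genotype was narrow, with coefficients of variation of 7.47% and 9.67%. Means were 47.9 ± 3.58 and 200.3 ± 19.4 (SD, n = 4 each), a 4.19-fold difference (log2 fold change 2.07 ± 0.18, SE). Within each genotype the libraries below 10000000 counts lay inside the range of the others. None of the 4277 stretches of 75 bases, the read length, in its transcripts occurred in a transcript of another gene.

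Rasgrf1 (ENSMUSG00000032356, chr9:89909908-90026977, plus strand, GRCm38) went the other way. Its raw counts were 33, 68, 12 and 43 in the controls and 2, 3, 1 and 2 in Adipoq-F2-KO, or 156 against 8 in all. In normalized counts the controls were at 19.99, 35.8, 25.1 and 33.3 and the Adipoq-F2-KO libraries at 1.58, 1.86, 2.00 and 3.76. Every Adipoq-F2-KO library was at or below 3 raw counts, the floor used here, while every control library was above it. Summed over libraries and scaled by their totals, Rasgrf1 was 14.4-fold lower in Adipoq-F2-KO, with an exact 95% counting interval of 7.13-fold to 34.0-fold that covers counting error only. The fitted log2 fold change of -3.78 ± 0.65 (SE, n = 4 per genotype) depends on the model at such low counts. None of its 11057 stretches of 75 bases was shared with a transcript of another gene.

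The starts of Zfp949 and Rasgrf1 lie 1.362 Mb apart on the same strand. Across the 8 libraries their log2 normalized counts had a Pearson correlation of -0.987, a description of 8 points that fall into 2 genotypes. The smooth muscle score, which differed widely among libraries, had correlations of 0.06 with Zfp949 and -0.04 with Rasgrf1. Of the other 8 genes it went most with Pgm3 (-0.63), Plscr1 (-0.62) and Rwdd2a (-0.46), whose estimates with the score as a covariate were -0.24, -0.44 and -0.72. With that score as a covariate, or in the 5 libraries of at least 10000000 counts alone, neither difference changed direction.

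**Figure D1:**
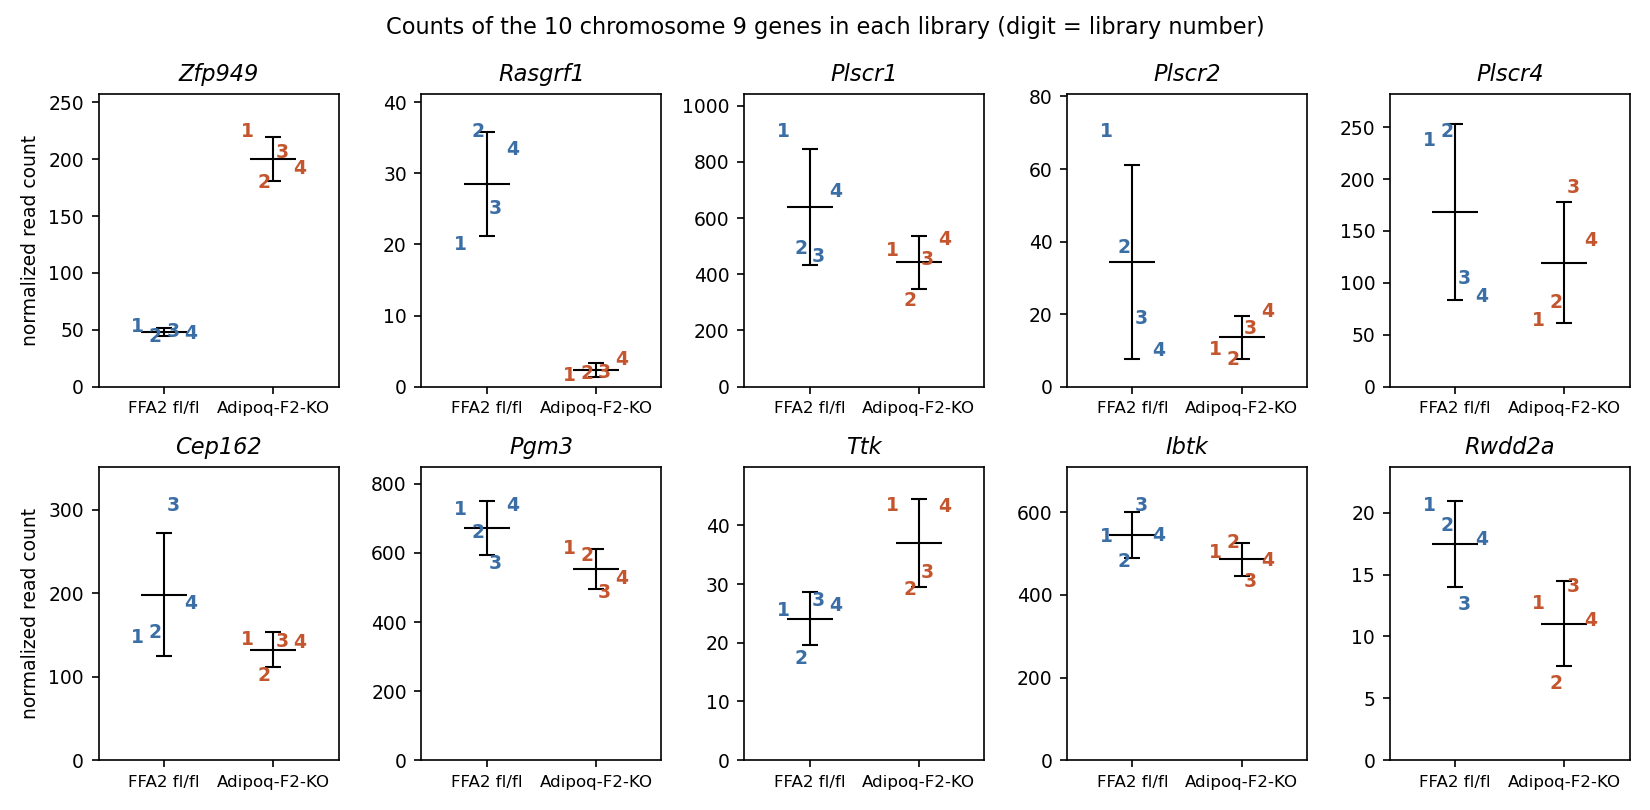
Normalized read counts (linear axes from 0, with a scale of its own for each gene) of the 10 chromosome 9 genes in the 4 FFA2 fl/fl (blue) and 4 Adipoq-F2-KO (orange) libraries, where each digit is the library of that number, long bars are genotype means and error bars are SD. Zfp949 sits at 44.3 to 52.7 in the controls and 179 to 224 in Adipoq-F2-KO, Rasgrf1 at 19.99 to 35.8 and 1.58 to 3.76, and most of the other genes overlap.

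The question for the other 8 genes is whether the genotype difference of Zfp949 and Rasgrf1 was shared along the chromosome. None of the 8 passed the test (DESeq2 Wald test, adjusted p = 0.9998 for each), where 0.0375% of all 15986 tested genes did (0.0313% higher and 0.00626% lower in Adipoq-F2-KO). Of the 8, 5 had an unadjusted p below 0.05, and of these 1 was higher and 4 were lower, against 3.03% of all tested genes (1.65% higher and 1.38% lower). In edgeR none of the 8 passed and 6 had an unadjusted p below 0.05, against 0.0125% and 3.48% of all tested genes. In limma-voom none passed and 4 had such a p, against 0.00626% and 4.3%. These genes were named with results of the same libraries known, so that share says nothing of the region, which was counted separately by position. Values of 2 of the 8, Ttk and Cep162, did not overlap between the genotypes, as for 2.12% of all tested genes (1.1% higher and 1.02% lower in Adipoq-F2-KO).

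Of the 3 Plscr genes described here, Plscr1 (ENSMUSG00000032369, chr9:92249750-92272278) was the most abundant. Its normalized counts were 907, 490.2, 464 and 693 in the controls and 485, 306, 452 and 523 in Adipoq-F2-KO (log2 fold change -0.54 ± 0.24, SE). The groups overlapped, with 2 of 4 Adipoq-F2-KO libraries below all controls. Without FFA2 fl/fl 1, the highest library, the estimate was -0.32. Of its stretches of 75 bases, 6.53% also occurred in transcripts of Gm5530.

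Plscr2 (ENSMUSG00000032372, chr9:92275602-92297752) had normalized counts of 70.3, 38.5, 18.8 and 10.1 in the controls and 10.3, 7.44, 16.02 and 20.7 in Adipoq-F2-KO. The control libraries alone differed 6.98-fold, and the largest, FFA2 fl/fl 1, set much of the estimate, which was -1.42 ± 0.61 (SE) with it and -0.82 without it. Plscr4 (ENSMUSG00000032377, chr9:92457373-92492456) stood at 237, 246, 105 and 86.7 in the controls and at 63.9, 81.2, 192 and 141 in Adipoq-F2-KO. The genotypes overlapped in Plscr4 too, and its estimate of -0.52 ± 0.41 (SE) ran from -0.85 without Adipoq-F2-KO 3 to -0.29 without FFA2 fl/fl 2. Plscr2 and Plscr4 varied together across the 8 libraries (Pearson r of 0.856, described without a test), with FFA2 fl/fl 1 and 2 highest for both. In the 5 deeper libraries alone the estimates were -0.82 for Plscr1, -2.18 for Plscr2 and -1.39 for Plscr4.

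Cep162 (ENSMUSG00000056919, chr9:87189577-87255536, minus strand) was below every control in all 4 Adipoq-F2-KO libraries, by a narrow margin. Its normalized counts were 147, 152, 305 and 187 in the controls and 144, 101, 142 and 141 in Adipoq-F2-KO, so the lowest control was 1.02 times the highest Adipoq-F2-KO value. The estimate was -0.57 ± 0.26 (SE), -0.31 without FFA2 fl/fl 3, its highest library, and -0.57 with the smooth muscle score as a covariate. Ttk (ENSMUSG00000038379, chr9:83834689-83872389) went in the direction of Zfp949, with 25.4, 17.4, 27.2 and 26.3 in the controls and 43.4, 29.1, 32.0 and 43.2 in Adipoq-F2-KO. Here too the groups were apart by little, the lowest Adipoq-F2-KO value being 1.07 times the highest control value (log2 fold change 0.64 ± 0.32, SE).

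Pgm3 (ENSMUSG00000056131, chr9:86554377-86571842, minus strand) had normalized counts of 726, 659, 569 and 738 in the controls and 612, 593, 487 and 526 in Adipoq-F2-KO. The groups overlapped, and the estimate of -0.28 ± 0.13 (SE) was small but steady, from -0.34 to -0.22 as each library was left out. Of its stretches of 75 bases, 25.1% also lie in transcripts of Dop1a on the opposite strand, and since the strand setting of the counting was not given, the Pgm3 values are uncertain to that extent. Rwdd2a (ENSMUSG00000032417, chr9:86571991-86574899), which starts beside Pgm3 on the plus strand, had 20.6, 19.0, 12.5 and 17.8 in the controls and 12.6, 6.20, 14.01 and 11.3 in Adipoq-F2-KO (log2 fold change -0.77 ± 0.46, SE). Raw counts of Rwdd2a were between 6 and 36, and its groups overlapped. Without Adipoq-F2-KO 2, its lowest library, the estimate was -0.51. Ibtk (ENSMUSG00000035941, chr9:85687360-85749334, minus strand) had 541, 481, 617 and 544 in the controls and 504, 526, 432 and 483 in Adipoq-F2-KO. Its log2 fold change was -0.15 ± 0.12 (SE), with a 95% interval from -0.39 to 0.09, which does not reach a 2-fold difference, and it was -0.09 without FFA2 fl/fl 3 and -0.02 in the 5 deeper libraries.

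**Figure D2:**
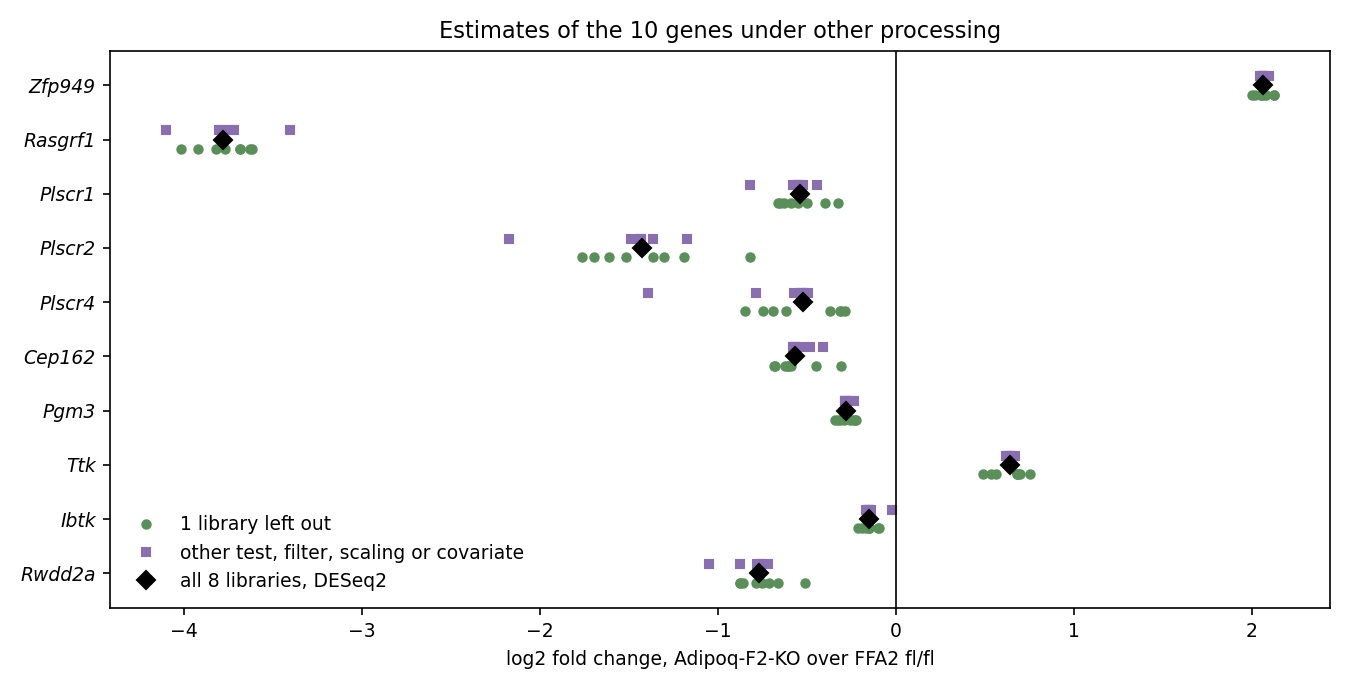
Log2 fold change (Adipoq-F2-KO over FFA2 fl/fl) of each of the 10 genes under the main DESeq2 fit and its alternatives, with diamonds for the main fit, circles for fits with 1 library left out and squares for another test, filter, scaling or covariate. Zfp949 stays between 2.00 and 2.13 and Rasgrf1 between -4.10 and -3.41, whereas Plscr2 runs from -2.18 to -0.82.

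The neighbourhood was then counted by position alone. Of 190 annotated genes that start within 5 Mb of Zfp949 or Rasgrf1, 36 had enough counts to be tested. Leaving out Zfp949 and Rasgrf1 themselves, 0 of 34 passed the test (DESeq2 adjusted p below 0.05), and 5 had an unadjusted p below 0.05 (14.7%, against 3.03% of all tested genes), namely Plscr1, Plscr2, Cep162, Pgm3 and Ttk, which all belong to the genes named with results known. The numbers at an unadjusted p below 0.05 were 6 in edgeR and 4 in limma-voom, and neither called a gene. Estimates were higher for 16 and lower for 18, with a median of -0.06, against -0.01 over all tested genes. Among the 26 tested neighbours outside the 8 named genes, none had an unadjusted p below 0.05, the groups of each overlapped, and the estimates ran from -0.53 to 0.74. The 8 were named with results known and hold all 5 neighbours with such a p, so the 26 cannot show an unchanged region. Under 5 of 16 alternatives 1 of these 26 did have such a p, either Nt5e, which encodes an enzyme that makes adenosine, or Tent5a, and neither was called. For 18 of these 26 the 95% interval left out a 2-fold difference in either direction. For the rest the data could not show or leave out a difference of that size. Within 10 Mb, 0 of 89 passed and 10 had an unadjusted DESeq2 p below 0.05 (11.2%), of which 5 lie beyond the 5 Mb window and outside the named genes. These were Spsb4 (-1.32 ± 0.43, SE), Gm37113 (-0.74 ± 0.24), Gm19325 (0.56 ± 0.22), Gm16185 (0.32 ± 0.12) and Slc25a36 (0.31 ± 0.13), in both directions.

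The nearest tested genes on each side of Zfp949 and of Rasgrf1 had estimates near 0. Snhg5, whose start lies 0.025 Mb before that of Zfp949 and which encodes a small nucleolar RNA host transcript, had a log2 fold change of 0.03 ± 0.31 (SE). On the other side Gm37226, an annotated gene model with about 10 normalized counts, had 0.09 ± 0.49. Tmed3, which encodes a protein of vesicle transport and starts 0.205 Mb before Rasgrf1, had 0.01 ± 0.15, and Ctsh, encoding the lysosomal protease cathepsin H and starting 0.144 Mb after it, had 0.06 ± 0.12. The 95% intervals of Snhg5, Tmed3 and Ctsh left out a 2-fold difference, and that of Gm37226 (-0.87 to 1.04) did not. Of 40 genes that start between Zfp949 and Rasgrf1, 4 could be tested, with estimates from -0.45 to 0.09. On chromosome 9 outside the 5 Mb window, 27 of 862 tested genes (3.13%) had an unadjusted p below 0.05, near the share of all genes. These 27 include the genes named above that lie beyond 5 Mb but within 10 Mb.

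**Figure D3:**
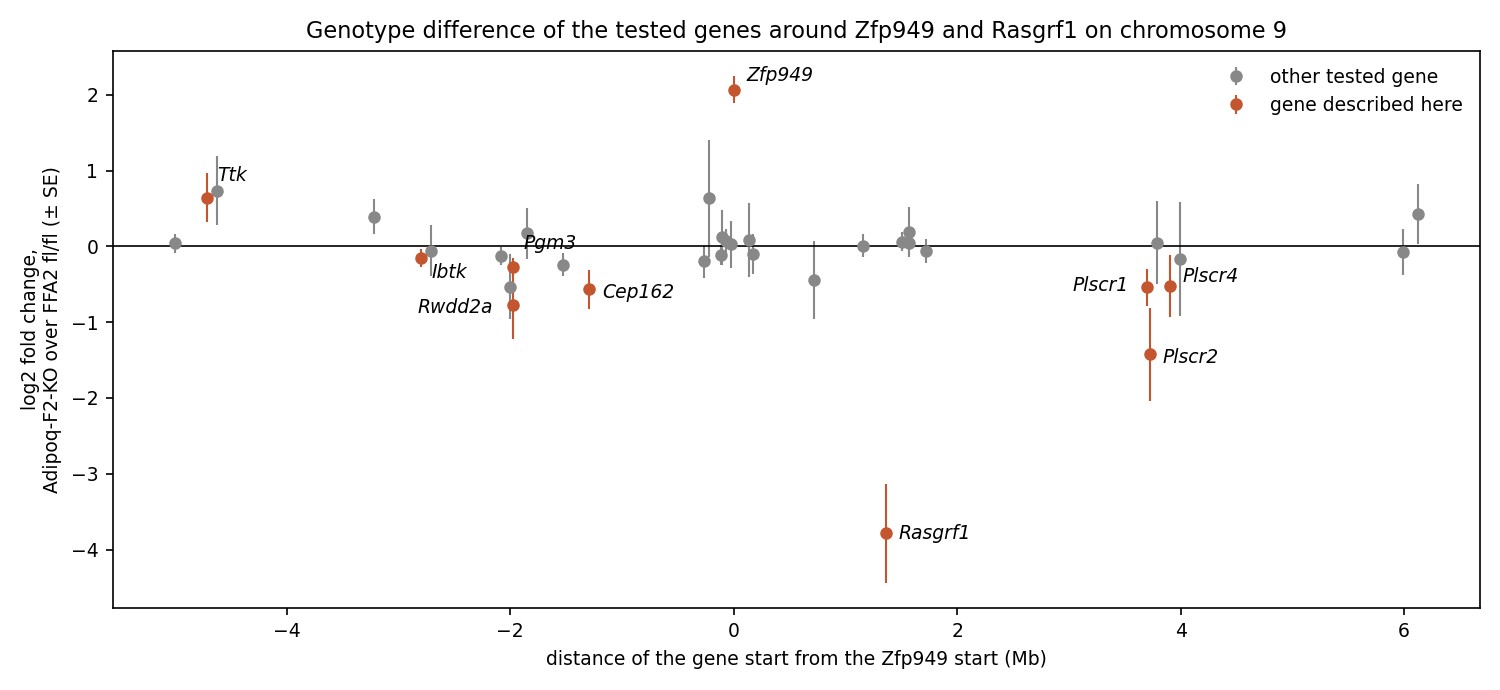
Log2 fold change (Adipoq-F2-KO over FFA2 fl/fl) with error bars of 1 SE for the tested genes within 5 Mb of either start, named genes in orange and others in grey, plotted by the distance in Mb of the gene start from that of Zfp949. Zfp949 at 2.07 and Rasgrf1 at -3.78 stand apart, and the other 34 tested genes, the 8 other named genes among them, lie between -1.42 and 0.74.

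Per exon length and library total (RPKM, computed here from the counts), a scale on which genes can be compared, the mean level in the controls was 21.9 for Plscr1, 12.7 for Pgm3, 5.31 for Ibtk, 4.01 for Plscr4, 1.42 for Cep162, 1.07 for Rwdd2a, 0.981 for Zfp949, 0.926 for Plscr2, 0.411 for Ttk and 0.218 for Rasgrf1. Neighbours in this order were apart in all control libraries only for Plscr1 over Pgm3, Pgm3 over Ibtk and Ttk over Rasgrf1. By its mean Zfp949 was at rank 7 of 10 in the controls and at rank 4 in Adipoq-F2-KO, where its level was 4.08 ± 0.337 (SD, n = 4) and its libraries overlapped those of Ibtk and Plscr4, its neighbours in the order. Rasgrf1 was the least abundant in both genotypes, at 0.0173 ± 0.00702 in Adipoq-F2-KO.

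**Figure D4:**
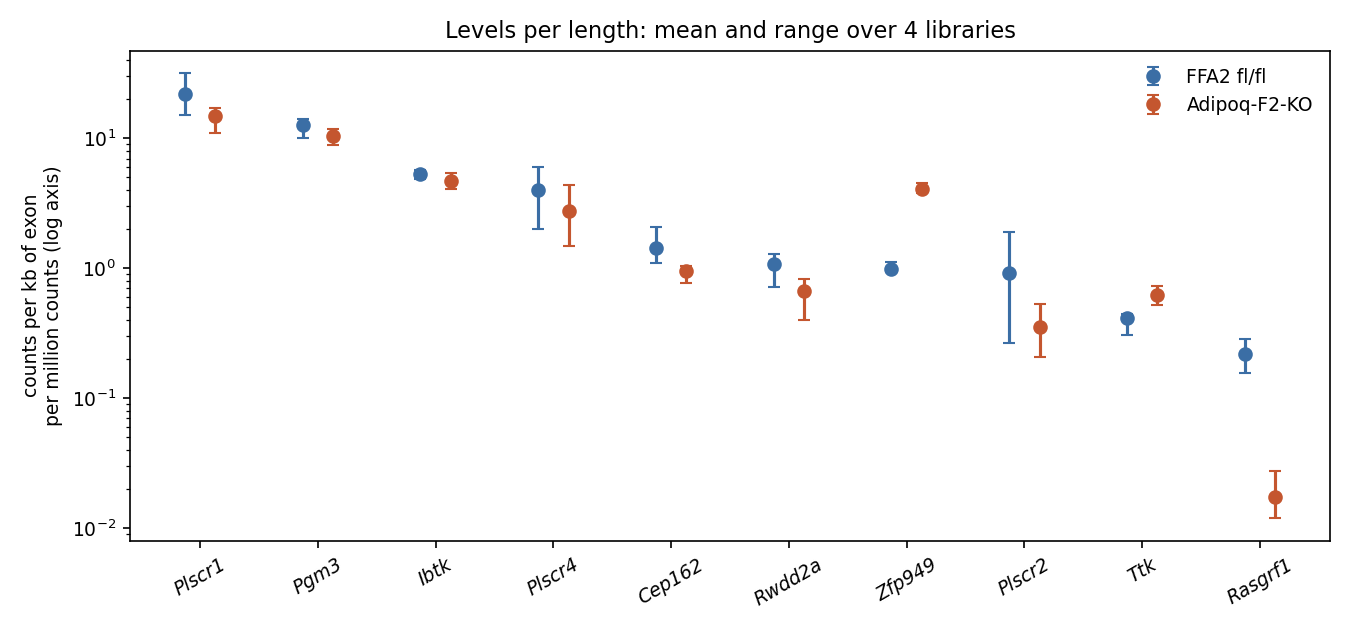
Level of each of the 10 genes in RPKM, counts scaled by exon length and library total (log axis), with points at the mean and bars over the range of the 4 libraries of each genotype. The order runs from Plscr1 (mean 21.9 in the controls) to Rasgrf1 (0.218), and Zfp949 stands at 0.981 and 4.08.

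Partner genes were read from 9 lists, and their log2 fold changes are given with the SE. The list of Ras exchange factors and Ras genes held 19 tested genes, and apart from Rasgrf1, which is described above without a test, 0 passed and 0 had an unadjusted DESeq2 p below 0.05. Its paralogue Rasgrf2 had 541 ± 89.5 normalized counts in the controls against 595 ± 53.5 (SD, n = 4), a log2 fold change of 0.13 ± 0.15 (SE), and among the others Rasgrp1 had a log2 fold change of 0.31 ± 0.24 and Rasgrp3 of 0.88 ± 0.68. The median of this list was 0.05. Among 19 tested co-repressors and chromatin proteins that work with zinc finger proteins, 0 passed and 1 had an unadjusted p below 0.05, against 3.03% of all tested genes, with a median of 0.00. That gene was Dnmt1, the maintenance DNA methyltransferase (0.28 ± 0.14), and next came Chd3, a chromatin remodeller (-0.33 ± 0.17).

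Of 12 tested scramblases and their relatives 0 passed the test, and 11 had estimates below 0, with a median of -0.11. Over all tested genes 48.5% of estimates were above 0 and 3.03% had an unadjusted p below 0.05. Plscr2 and Plscr1 were the 2 with an unadjusted DESeq2 p below 0.05. Plscr3, which lies on another chromosome, had an estimate of -0.09 ± 0.23 (SE). Of 22 interferon-stimulated genes 3 were given no p by DESeq2 (Isg15, Rsad2 and Ifi44). Of the other 19, 0 passed and 2 had an unadjusted DESeq2 p below 0.05, Plscr1 among them. Over all 22, 18 had estimates above 0 and the median was 0.19. Plscr1 was the member with the lowest estimate (-0.54).

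All 22 genes of the spindle checkpoint and mitosis list, which holds Ttk, had estimates above 0, with a median of 0.27, against 48.5% of all tested genes with an estimate above 0. None passed the test, and 4 (18.2%) had an unadjusted p below 0.05, all with estimates above 0, against 1.65% of all tested genes in that direction. These were Ccnb2, a mitotic cyclin (0.69 ± 0.23, DESeq2 adjusted p = 0.742), Top2a, a topoisomerase of dividing cells (0.33 ± 0.14), the proliferation marker Mki67 (0.35 ± 0.15) and Ttk. Markers of crypts and proliferation summed to between 1973 and 2615 normalized counts in the controls and between 2336 and 3046 in Adipoq-F2-KO, but of the 8 tested 5 had estimates above 0 and 3 below, with a median of 0.14, and Mki67 and Top2a stand in both lists. The part of crypt content in the Ttk value was not tested.

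In each of the next 3 lists 1 gene had an unadjusted DESeq2 p below 0.05, namely Pgm3 (1 of 13), Cep162 (1 of 17) and Btk (1 of 12), against 3.03% of all tested genes, so that 1 gene in lists of this length is no result about the lists. In the hexosamine pathway 0 of 13 tested genes passed, with a median of -0.01. Pgm3 had the lowest unadjusted p, and Uap1, the enzyme that acts directly after it, had an estimate of the opposite sign (0.35 ± 0.18). In the centriole and transition zone list 0 of 17 passed, with a median of -0.03, and the lowest unadjusted p belonged to Cep162 and then to Cep83 (0.21 ± 0.21). Among 12 tested BTK and CUL3 partners of Ibtk 0 passed, with a median of 0.15. Btk itself, a kinase of B cells and myeloid cells, had 1.17 ± 0.56 (SE) from means of 12.3 and 29.5 normalized counts, beside macrophage markers that summed to 153 to 459 in the controls and 349 to 569.6 in Adipoq-F2-KO, and beside B and plasma cell markers, of which 6 of 7 tested had estimates above 0 (median 0.96) and which summed to 2305 to 4641 and 2760 to 4010. The part of either cell type in the Btk value was not tested. Next in this list came Pdcd4, which encodes a translation inhibitor (0.30 ± 0.22). Genes beside Adipoq on chromosome 16 were listed because the Cre is driven by the Adipoq promoter. The list was chosen with earlier results of these data known, so its share of calls says nothing of the position. Of 8 tested, 1 passed the test, where 0.0375% of all tested genes did. This was Eif4a2, a translation initiation factor (0.50 ± 0.11, SE, DESeq2 adjusted p = 0.0369), with 1598 ± 55.1 normalized counts in the controls against 2267 ± 292 (SD, n = 4). The call held under 5 of 16 alternatives, with adjusted p from 2.46e-05 to 0.999 and estimates from 0.38 to 0.58. It was lost in edgeR and in limma-voom, the tools that kept nearer to the threshold on simulated counts, and when any 1 library other than FFA2 fl/fl 3 or Adipoq-F2-KO 2 was left out. Rfc4, a subunit of the clamp loader of DNA replication, had 0.56 ± 0.35.

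**Figure D5:**
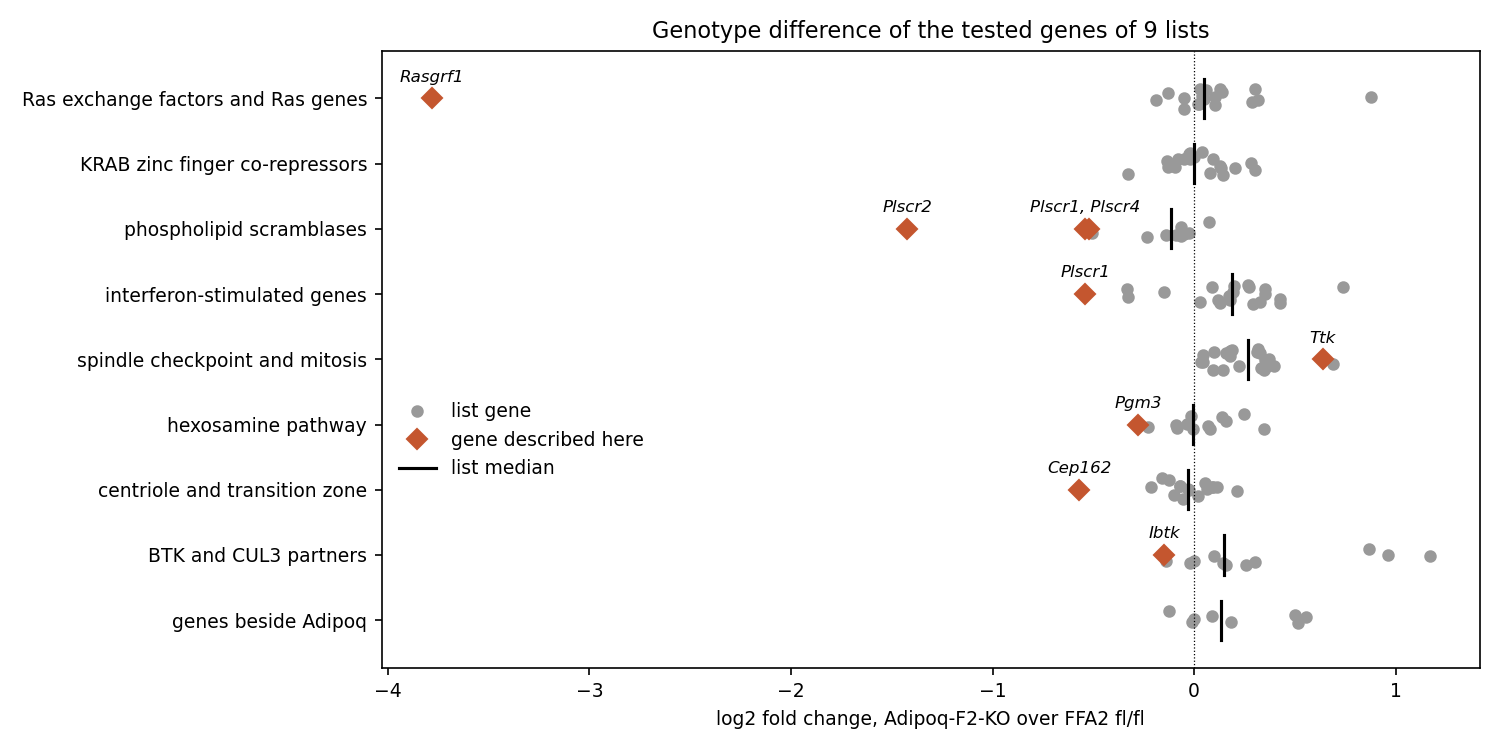
Log2 fold change (Adipoq-F2-KO over FFA2 fl/fl) of each tested gene of the 9 lists, with diamonds for the named chromosome 9 genes and a bar at each list median. Rasgrf1 at -3.78 lies far from the other Ras exchange factors, and list medians lie between -0.11 and 0.27.

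Among the genes whose pattern was most like that of Zfp949 across the 8 libraries, by Pearson correlation of log2(normalized count + 1) among genes with a mean of at least 50, were Gm11868 (0.950), Stard4 (0.940), Hist1h1b (0.929), Mad2l1bp (0.927) and Eif4a2 (0.923), and among the most opposite were Kat8 (-0.942) and Txndc15 (-0.931). For Rasgrf1 they included B930086L07Rik (0.928), Txndc15 (0.926), Ankrd46 (0.921) and Gm47373 (0.920), and the most opposite were Zfp949 (-0.987), Hist1h1b (-0.953) and Gm11868 (-0.950). Zfp949 was the only chromosome 9 gene among these. The 8 points fall into 2 genotypes, so any gene that differs between them gives a high value, and the values are given without a test.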

How the data were processed

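Polyadenylated RNA of jejunal mucosa from 4 FFA2 fl/fl and 4 Adipoq-F2-KO mice was sequenced with a stranded kit, single-end over 75 bp. The authors trimmed reads with Trimmomatic, aligned them with STAR and counted them per gene with featureCounts, and the deposited values are raw read counts per Ensembl gene, with 1 table per library. The submitters' processing notes name GRCm38 and mm10, while tool versions, the annotation release and the strand setting are not given in the sources used here. Symbols and positions were taken from GENCODE M21 (GRCm38), which holds 52073 of the 56980 identifiers. Groups and replicate numbers came from the sample titles. No pair of libraries within a genotype agreed within sampling noise (chi-square per gene 5.25 to 56.6 over 12 pairs).

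The 15986 genes that reached 10 counts in 4 or more libraries were fitted with DESeq2 1.42.0 in R 4.3.3, with genotype as the only term, a two-sided Wald test and Benjamini-Hochberg adjustment over all tested genes, of which 8 had no p. The threshold was an adjusted p of 0.05. Alternatives were TMM factors, edgeR 4.0.16, limma-voom (limma 3.58.1), other count filters, a replicate block, a smooth muscle covariate (mean centred log2 of 8 markers), the 5 deeper libraries and each library left out. On simulated counts each tool recovered most changed genes with the right sign, but DESeq2 called more unchanged genes than its adjusted threshold allows, while edgeR and limma-voom stayed near it. P-values weigh each genotype difference against the spread between these libraries. The floor of 3 counts covers counting error only, since reads carried no molecular identifiers. All members were named, with the nearest tested gene on each side of Zfp949 and of Rasgrf1, the 6 neighbours with the smallest unadjusted p, the 2 such genes of each list, and the most and least correlated genes. Rasgrf2, Plscr3, Rasgrp3, Mki67, Nt5e, Tent5a, Isg15, Rsad2, Ifi44 and the genes beyond 5 Mb were added after their values were seen, and results for some genes that the rule names are not reported here. The members and lists were chosen with earlier results of these data known.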

Additional observations from a re-analysis of the deposited data

Results flagged for a closer look

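The Cep162 normalized counts of the Adipoq-F2-KO group held 1 library far from the others. Adipoq-F2-KO 2 stood at 101 and the other libraries of the genotype between 141 and 144, so that the gap to the nearest library was 0.920 of the whole range, above Dixon's 95% critical value for a group of that size. Of 20 groups examined (10 genes in each genotype) 1 was flagged in this way, and chance flags about 1 in 20.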

How the results depend on the processing

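The number of genes called over the whole table was 6 and depended strongly on the processing. It was 2 with edgeR, 1 with limma-voom, 3 with no filter on low counts, 11 with a replicate block and 78 in the 5 libraries of at least 10000000 counts. As each library was left out it ran from 2 to 103, with 2 without FFA2 fl/fl 1, 23 without FFA2 fl/fl 2, 103 without FFA2 fl/fl 3, and 3 without FFA2 fl/fl 4 or Adipoq-F2-KO 4, and the cause was not tested. No tested neighbour within 5 Mb other than Zfp949 and Rasgrf1 was called under any of 18 alternatives, among them windows of 2 Mb (0 of 19) and 10 Mb (0 of 89), and none of the 8 other named genes under any of 16, with 1 to 6 of them at an unadjusted p below 0.05. The shares at an unadjusted DESeq2 p below 0.05 were 10.5% within 2 Mb and 11.2% within 10 Mb, against 3.03% of all tested genes. No estimate of the 10 genes changed direction under the alternatives in which it was fitted, and Rasgrf1, Plscr2 and Rwdd2a were not tested with at least 10 counts required in all 8 libraries. The median of all genes stayed between -0.02 and 0.01 over the settings. Replicate numbers did not pair the libraries: deviations of same-numbered libraries had correlations from -0.42 to 0.54, with 2 of 4 over 0.1, and 2 of 4 control libraries correlated best with their own number. Counts of Rasgrf1 in Adipoq-F2-KO, from 1 to 3, limit the precision of its fold.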

Other observations

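Of the 190 genes within 5 Mb, 154 had too few counts to be tested, of which 94 had no count in any library and 60 had some, with at most 85 raw counts over the 8 libraries, and the genotypes overlapped in each of those 60. Gm39384 had 14, 11, 3 and 3 raw counts in the controls and 5, 2, 1 and 0 in Adipoq-F2-KO. Elovl4, which encodes an elongase of very long chain fatty acids, had 12 raw counts in all. These values were chosen after they were seen.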
